A study of Danio rerio with 27 samples.

Results

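The intestine and the liver of adult zebrafish were compared for the genes of nutrient uptake and metabolism that the 2 digestive organs share and those in which they differ. The members are the 3 libraries labelled intestine and the 3 labelled liver, 6 of the 27 libraries of the series, which covers 9 tissues. Both organs came from wild-type fish of the TLAB strain, a cross of AB and TL (Tüpfel longfin) stocks, raised under standard conditions with no treatment. The labels give neither the age, the sex nor the feeding state of the fish, and they do not say whether each library came from a separate fish or a pool, so the p-values below measure only the spread between these libraries. Poly(A) RNA was sequenced in strand-specific libraries, and each gene carries a value in TPM, its transcript abundance after division by effective length and scaling of every library to the same sum. Replicates are listed in the order 1, 2, 3 throughout, a log2 difference is intestine minus liver on the log2(TPM + 1) scale, and a gene was called higher in an organ at an adjusted p under 0.05 and a difference of at least 2-fold (limma across all 13437 genes that reached 1 TPM in at least 3 of the 6 libraries). On this scale differences of genes with low values are understated, and for a gene at 0 counts in liver the difference is no bound. Genes with near-identical copies, such as the apoa4b, cela1 and prss59 genes and identifiers that share a symbol, could have had their reads split by the quantification.

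Enterocytes, the absorptive cells of the intestine, digest peptides and sugars with enzymes of the brush border, take up the products through membrane transporters and rebuild dietary fat into triglyceride that leaves the cell in lipoproteins. Hepatocytes, the main cells of the liver, receive these nutrients, store and release glucose, break down amino acids, secrete most plasma proteins and make bile acids, which the distal intestine reclaims. Several tasks run in both organs, among them lipoprotein assembly, gluconeogenesis, fatty acid oxidation and the modification of foreign compounds. In zebrafish the exocrine pancreas lies scattered along the intestine.

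All 3 intestine libraries held RNA of liver genes, in amounts that differed between the libraries. Transcripts of fabp10a, the fatty acid-binding protein of zebrafish hepatocytes, stood at 21055, 7748 and 3707 TPM in the intestine libraries, against 132201, 107982 and 83534 TPM in the liver libraries. Over 18 liver markers, which also include transferrin, the fibrinogen chains and prothrombin, the median level was 28.8%, 11.3% and 6.10% of the liver mean in intestine replicates 1, 2 and 3. After median-of-ratios rescaling of the libraries these shares were 16.5%, 6.34% and 3.26%. The markers lay close together in each library, between 19.5% and 34.6%, between 7.18% and 14.3%, and between 3.43% and 7.76%. In none of the 21 libraries of other tissues did the median exceed 0.339%. Whether this RNA came from liver tissue taken with the intestine was not tested. In bulk RNA, fewer cells of a type and less RNA per cell cannot be told apart.

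The intestine libraries held transcripts of exocrine pancreas genes as well, whose source was not tested. The 20 acinar genes listed, among them trypsinogens, elastases and amylase, summed to 51872, 59168 and 33429 TPM in the intestine libraries, against 1004, 2041 and 541 TPM in the liver libraries. Islet transcripts were also present, and insulin (ins) reached 459.6, 143 and 41.3 TPM in intestine, against 0.738, 1.17 and 0.824 TPM in liver. Of 21 enterocyte markers tested, 19 were higher in intestine and 1 in liver, and the median marker level in liver replicates 1, 2 and 3 was 0.0531%, 0.137% and 0.0321% of the intestine mean. Of the 23 enterocyte identifiers listed, 5, 6 and 10 were at 0 in liver replicates 1, 2 and 3. Some members were abundant in liver, which the median does not show. Among them were the identifiers listed as rbp2, whose values are given with the retinoid genes. Summed, the 23 had 24194.5, 25460 and 31382 TPM in the intestine libraries, against 3561, 1884 and 3099 TPM in the liver libraries. Of 8 goblet cell symbols listed, 2 matched no identifier, and 2 of the 6 identifiers matched passed the filter. The mucins among those 6 were close to absent, with muc2.2 listed at 0 in all intestine libraries. Genes without a match were not looked up under other names, so the level of goblet cell mucins as a whole is not known. The goblet cell gene agr2 had 28.2, 47.1 and 39.03 TPM in intestine and 0.641, 0.242 and 0.427 TPM in liver. Hemoglobin hbaa1 was lower in intestine, with 40.4, 25.7 and 17.1 TPM, against 310.3, 173 and 304 TPM in liver. Genes of enteroendocrine cells (11 of 11 tested), smooth muscle (9 of 11), enteric neurons (2 of 2) and islets (6 of 6) were higher in intestine, as were 6 of 13 leucocyte genes and 2 of 8 bile duct genes, where 30.4% of all genes tested were higher in intestine. In no liver library did the sum exceed 4.55 TPM for the 15 enteroendocrine identifiers listed. It stayed within 2.21 TPM for the 12 of enteric neurons and 2.43 TPM for the 8 of islets. Identifiers that failed the filter numbered 4, 10 and 2 in that order. Members of these lists passed the filter almost only through the intestine libraries, so their counts were nearly fixed by it. No germ cell gene passed the filter, and the only vitellogenin that did was not called.

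Liver replicate 1 stood apart from its group. It had 8419 genes at 1 TPM or more, against 11660 and 11047 in liver replicates 2 and 3 and 13661 to 13851 in the intestine libraries. Its correlation with the other liver libraries on the log2 scale (across genes, which are not independent) was 0.912 and 0.915, against 0.976 between those 2. The library held the lowest of the 3 liver values for 71.0% of all genes tested, and for 72.8% of the metabolic genes described below. Estimated counts summed to 10456397, 14151312 and 10657028 in the intestine libraries and to 9434882, 11543683 and 11126186 in the liver libraries. Replicates of each organ differed by far more than sampling noise, with chi-square values divided by their degrees of freedom that were never below 31.5.

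**Figure D1:**
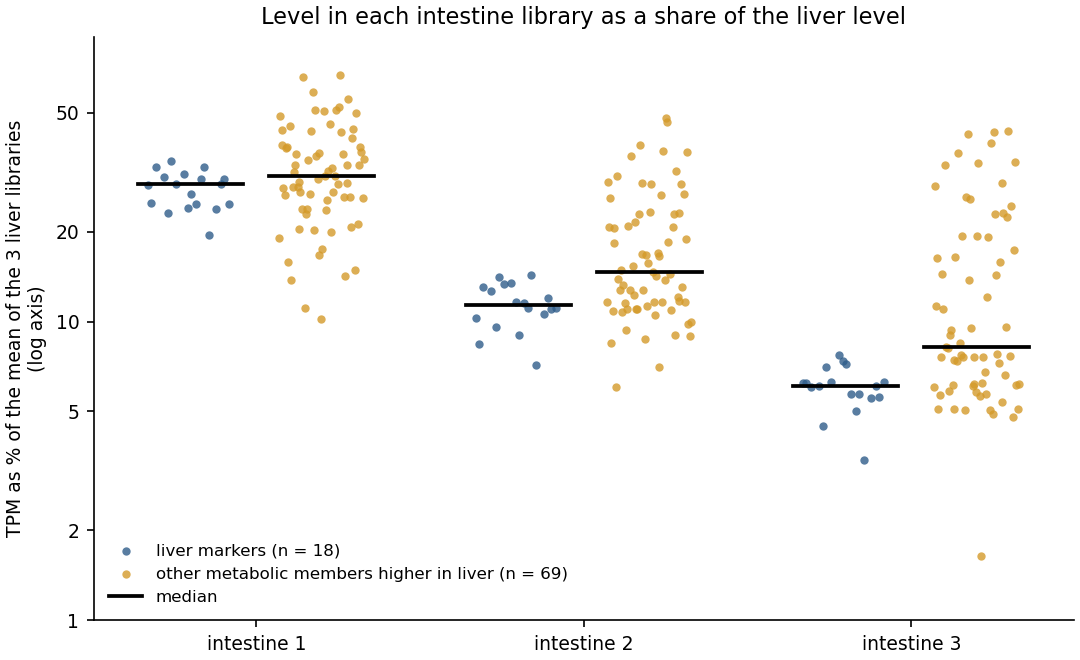
Level in intestine replicates 1, 2 and 3 (x axis) as a percent of the mean of the 3 liver libraries (y axis, log scale). Blue points are the 18 liver markers, ochre points the 69 other metabolic genes called higher in liver, and bars are medians; the marker medians are 28.8%, 11.3% and 6.10%, and the ochre points reach above the marker band in each library.

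Across all genes tested, 4090 (30.4%) were higher in intestine and 616 (4.58%) were higher in liver, 35.0% in either direction, while 714 (5.31%) lay within 2-fold, with a 95% interval inside that range and 10 TPM or more in all 6 libraries. Without liver replicate 1 the genes higher in liver numbered 1019, and without intestine replicate 2 or 3 they numbered 409. The median difference of all genes was 0.63. After median-of-ratios rescaling, which brought the median to 0.03, the calls were 2324 (17.9%) in intestine and 1479 (11.4%) in liver, and no gene called in both fits turned round. A group of 16 lists of metabolic genes, 490 identifiers in all, were followed, of which 419 passed the filter. Of these, 160 (38.2%) were higher in intestine and 71 (16.9%) in liver, and 27 (6.44%) lay within 2-fold. With the rescaling the counts were 115 and 120, and the median of the 419 members was 0.68 without it and -0.10 with it. No call turned round in any setting run, and 138 of the 160 and 50 of the 71 were made again in each fit that left out a library.

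The liver RNA in the intestine libraries bears on the second group. Among the 71 metabolic genes higher in liver, intestine replicate 1 was the highest intestine library in 66 (93.0%), against 90.9% of all genes higher in liver and 30.0% of all genes tested. Their median level in intestine replicates 1, 2 and 3 was 30.7%, 14.4% and 8.17% of the liver mean, and that of all genes higher in liver was 32.8%, 15.5% and 9.26%. In 20 of the 71 all 3 intestine libraries lay above the share of every liver marker, and those described below are pointed out. This is 28.2% of the 71, against 30.8% (190 of 616) of all genes higher in liver. Liver markers set the band and could not lie above it. All 18 are among the 616, while 69 of the 71 are not markers. For the other 51 the intestine level was inside or below the marker band in at least 1 library. The liver mean times the median marker share was then taken off each intestine library. Of the 419 metabolic genes tested, 157 were higher in intestine and 94 in liver in that fit. Among all 13437 genes these numbered 3758 (28.0%) and 976 (7.26%). The subtraction can only lower intestine values, so a shift of calls towards liver was fixed in advance.

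**Figure D2:**
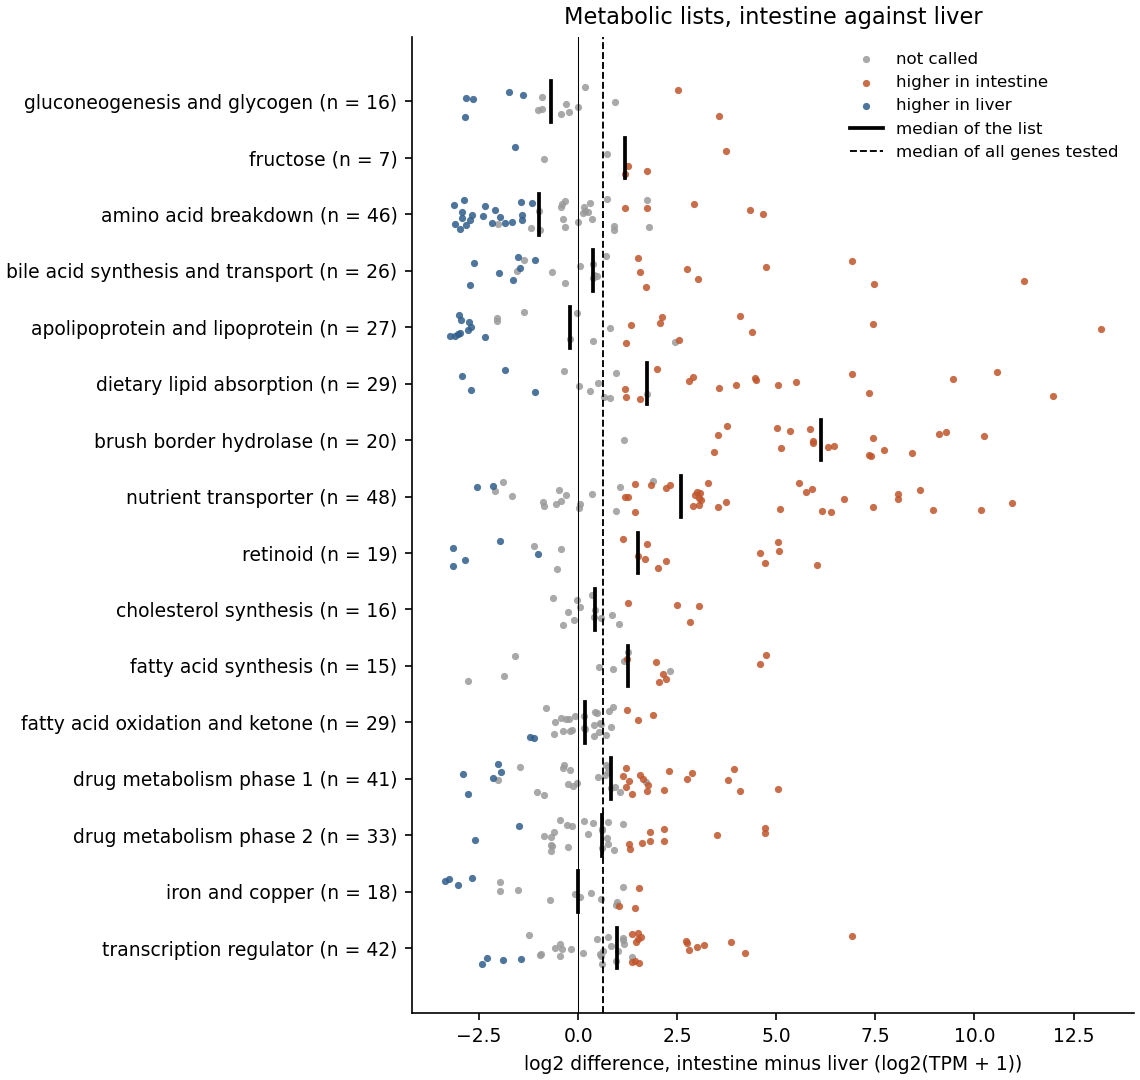
Difference between the organs for each tested member of the 16 metabolic lists (x axis, intestine minus liver on the log2(TPM + 1) scale). Points are genes, orange for higher in intestine, blue for higher in liver and grey for not called, black bars are list medians and the dashed line is the median of all genes, 0.63; the median of the brush border hydrolases, 6.12, lies farthest to the right and that of the amino acid enzymes, -0.98, farthest to the left.

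Of 29 genes of dietary lipid absorption tested, 17 were higher in intestine and 4 in liver, against 30.4% and 4.58% of all genes. Rescaling moved the median from 1.74 to 0.95, with 14 and 4 calls. Without intestine replicate 2 or 3, or liver replicate 2 or 3, only 1 call on the liver side remained. Those of all genes fell from 616 to between 409 and 497 in these fits. The intestinal fatty acid-binding protein gene fabp2 had 3815, 3950.2 and 4895 TPM in the intestine libraries, against 3.91, 1.08 and 1.04 TPM in the liver libraries (log2 difference 10.57, SE 0.372, limma adjusted p = 4.9e-06). A second carrier listed as fabp1 (ENSDARG00000059227) had 5243, 3471 and 6522 TPM in intestine, while the liver libraries held 0, 0 and 0.769 TPM, at most 2 counts (log2 difference 11.99, adjusted p = 2.6e-06). The liver libraries instead held fabp10a, which was lower in intestine (log2 difference -3.65, SE 0.584, limma adjusted p = 0.0028). The fatty acid translocase gene cd36 had 698, 787 and 819 TPM in the intestine libraries, against 0.0455, 0.192 and 0.0508 TPM in the liver libraries. The acyl-CoA synthetase acsl5 (148, 168 and 166 TPM) and the monoacylglycerol acyltransferase mogat2 (107, 126 and 128 TPM) were present in all intestine libraries and at 0 counts in all liver libraries, which makes them at least 1938-fold and at least 517-fold higher in intestine when 3 counts per liver library are taken as the floor. Both catalyse early steps in the rebuilding of triglyceride, by activating fatty acids and by joining them to monoacylglycerol.

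The last step of triglyceride synthesis is catalysed by 2 kinds of enzyme. The acyltransferase dgat1 (ENSDARG00000103503) had 71.3, 73.1 and 86.5 TPM in the intestine libraries, against 2.08, 1.81 and 3.95 TPM in the liver libraries (log2 difference 4.47, adjusted p = 4.7e-05). Its functional counterpart dgat2 had 132, 131 and 167 TPM in intestine, against 4.29, 104 and 142 TPM in liver, where replicate 1 alone was low, and it was not called (log2 difference 1.74, adjusted p = 0.26). Sterol esterification showed opposite preferences between 2 related enzymes. The cholesterol acyltransferase soat1 had 16.4, 16.9 and 24.2 TPM in the intestine libraries, against 0.105, 0.832 and 1.41 TPM in the liver libraries (log2 difference 3.55, adjusted p = 0.0003), whereas soat2 had 7.07, 2.68 and 4.896 TPM in the intestine libraries, against 28.97, 37.2 and 67.4 TPM in the liver libraries (log2 difference -2.93, adjusted p = 0.0017). The sterol efflux pair abcg5 and abcg8 was higher in intestine, at 79.3, 62.3 and 85.5 TPM for abcg5 against 6.83, 11.3 and 12.96 TPM in liver (log2 difference 2.79, adjusted p = 0.0004). For npc1l1, which takes up cholesterol, the values were 8.59, 9.44 and 11.4 TPM in intestine and 1.38, 6.36 and 8.94 TPM in liver, and it was not called (log2 difference 0.94, adjusted p = 0.18). The microsomal transfer protein gene mttp, which loads lipid onto apolipoprotein B, was higher in intestine (113, 109 and 134 TPM, against 29.03, 56.2 and 77.9 TPM in liver, log2 difference 1.22, adjusted p = 0.032). That call was lost without intestine replicates 1, 2 or 3 or liver replicates 1 or 2 (log2 difference 0.83 to 1.295, adjusted p from 0.022 to 0.11) and also after rescaling (0.395, adjusted p = 0.29) and liver subtraction (1.11, adjusted p = 0.052).

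Among apolipoproteins, which coat lipoprotein particles and direct their exchange, members were called on both sides and others were not called. Of 27 genes tested, 9 were higher in intestine and 10 in liver, against 30.4% and 4.58% of all genes tested. Their median was -0.22, and -1.05 after rescaling, with 6 and 10 calls. The largest difference belonged to 1 of the 2 apolipoprotein E genes. Transcripts of apoea reached 11866, 10009 and 14772 TPM in intestine, against 0.4805, 0.197 and 0.208 TPM in liver (log2 difference 13.19, SE 0.223, limma adjusted p = 1.1e-06), whereas its paralogue apoeb had 733, 1324 and 1130.0 TPM in intestine, against 1004, 1356 and 858 TPM in liver, and lay within 2-fold (log2 difference -0.03, adjusted p = 0.94). The apolipoprotein A-I genes were called on opposite sides. Of these apoa1a had 29299.7, 23273 and 37772 TPM in the intestine libraries, against 7200.1, 5439 and 9102 TPM in the liver libraries (log2 difference 2.06, adjusted p = 0.00088), and this call was lost after rescaling (1.22, adjusted p = 0.084). The copy apoa1b had 9306, 3818 and 1755 TPM in the intestine libraries, against 30637, 41244 and 32069 TPM in the liver libraries (log2 difference -3.11, SE 0.553, limma adjusted p = 0.0044). In intestine apoa1b stood at 26.9, 11.02 and 5.07% of the liver mean, against a marker median of 28.8%, 11.3% and 6.10%.

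Apolipoprotein A-IV genes, whose products are made by enterocytes during fat absorption, were all called higher in intestine. The most abundant gene apoa4b.2 had 2482, 2618 and 2719.5 TPM in the intestine libraries, against 148, 211 and 117 TPM in the liver libraries (log2 difference 4.07, adjusted p = 4.1e-05), and apoa4a had 421, 319 and 277 TPM in the intestine libraries, against 2.39, 0.203 and 0.771 TPM in the liver libraries (log2 difference 7.44, adjusted p = 2.8e-05). The 2 others were called by less, apoa4b.3 by 4.39 and apoa4b.1 by 1.33. The call of apoa4b.3 was lost without intestine replicate 2 (log2 difference 4.17, adjusted p = 0.056), that of apoa4b.1 was lost without intestine replicates 1 or 3 or liver replicate 3 (log2 difference 1.24 to 1.25, adjusted p from 0.056 to 0.071), and the rescaled difference of apoa4b.1 was 0.498 (adjusted p = 0.53). On the liver side stood apoa2 and apoc1, small apolipoproteins of circulating particles. Transcripts of apoa2 had 15439, 5353 and 3035 TPM in intestine, against 61344, 55490.5 and 61986 TPM in liver (log2 difference -3.24, adjusted p = 0.0033), and apoc1 had 5169.6, 2402 and 1312 TPM, against 21206, 18816 and 19451 TPM in liver (log2 difference -2.96, adjusted p = 0.0024). Intestine replicate 1 was the highest intestine library for both, at 25.9, 8.98 and 5.09% of the liver mean for apoa2 in replicates 1, 2 and 3. The lipoprotein remodelling genes cetp (-2.99), lipc (-2.78) and apom (-3.01) were also lower in intestine. None of the 10 genes higher in liver lay above the marker band in all intestine libraries, which apom, itself a liver marker, could not do.

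Other lipoprotein genes were expressed in both organs. The lipase cofactor apoc2 had 1731, 1735 and 1659 TPM in the intestine libraries, against 2026, 1933 and 1991 TPM in the liver libraries, and lay within 2-fold (log2 difference -0.22), although rescaling moved the difference to -1.05. The apolipoprotein B gene apobb.1 had 1286, 1212 and 1797 TPM in the intestine libraries, against 457, 1062 and 1102 TPM in the liver libraries, and it was not called (log2 difference 0.796, adjusted p = 0.12). The genes apob and apobb.2 were lower in intestine (log2 difference -2.34 and -2.77), and the call of apob was lost without intestine replicates 2 or 3 or liver replicates 2 or 3 (log2 difference -2.31 to -1.701, adjusted p from 0.076 to 0.087).

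**Figure D3:**
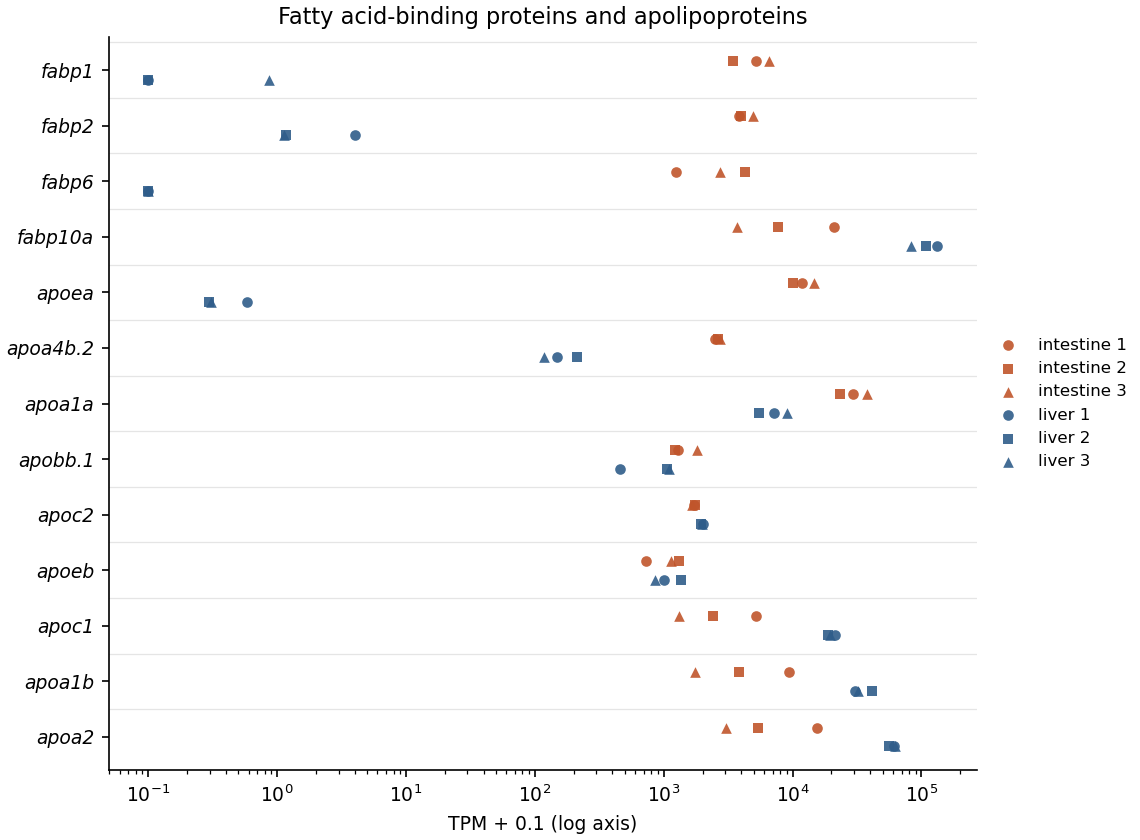
Levels of 13 fatty acid-binding protein and apolipoprotein genes in every library (x axis, TPM + 0.1, log scale). Orange symbols are intestine and blue symbols liver, with circle, square and triangle for replicates 1, 2 and 3. Liver values of fabp1, fabp2, fabp6 and apoea lie below 4 TPM, the organs overlap for apoeb, and in the 3 lowest genes the intestine circle lies to the right of the intestine triangle.

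Bile acid genes were called on both sides. Of 26 genes tested, 9 were higher in intestine and 7 in liver, against 30.4% and 4.58% of all genes tested. Their median was 0.38, and -0.32 after rescaling, with 7 and 8 calls. The ileal bile acid-binding protein fabp6 had 1246, 4251 and 2756 TPM in intestine and 0 counts in all liver libraries, at least 2872-fold higher in intestine against a floor of 3 counts per library. The apical sodium-bile acid transporter slc10a2 had 60.8, 331 and 293 TPM in the intestine libraries, against 0.047002, 0.0496 and 0 TPM in the liver libraries (log2 difference 7.46, SE 0.626, limma adjusted p = 0.00017). Both were lowest in intestine replicate 1. The summed enterocyte markers were also lowest there but varied less, at 24194.5, 25460 and 31382 TPM in the intestine libraries. The cause was not tested. The repressor nr0b2, a target of the bile acid receptor in mammals, had 92.03, 208 and 281 TPM in intestine, against 0.537, 0.479 and 0.408 TPM in liver (log2 difference 6.902, adjusted p = 4.1e-05). The receptor gene nr1h4 itself had 29.6, 42.5 and 35.6 TPM in intestine, against 13.4, 9.998 and 12.1 TPM in liver (log2 difference 1.52, adjusted p = 0.0023), a call that rescaling removed (0.72, adjusted p = 0.16). The phospholipid exporter abcb4 was higher in intestine (log2 difference 4.73, adjusted p = 0.00015), with 309, 468 and 479 TPM, against 7.94, 20.9 and 18.1 TPM in liver, although its mammalian namesake is known from the bile canaliculus.

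Synthesis enzymes did not move together. The rate-limiting enzyme gene cyp7a1 had 80.4, 5.39 and 1.22 TPM in intestine, against 131, 18.3 and 10.4 TPM in liver, and it was not called (log2 difference -1.55, adjusted p = 0.4). Its level was far higher in replicate 1 than in replicates 2 and 3 of both organs. With the replicate number as a block it was called lower in intestine (limma adjusted p = 0.021). That pairing by number was taken from these same data, since the labels do not give it. The sterol 12-hydroxylase cyp8b1 (ENSDARG00000053068) had 27.6, 13.2 and 5.06 TPM in the intestine libraries, against 82.03, 108 and 78.4 TPM in the liver libraries (log2 difference -2.73, adjusted p = 0.0066). In contrast hsd3b7, another enzyme of the pathway, was higher in intestine, with 189, 332 and 516 TPM, against 29.8, 51.6 and 64.4 TPM in liver (log2 difference 2.76, adjusted p = 0.0027). The peroxisomal acyl-CoA synthetase slc27a2a was lower in intestine, at 263, 158 and 153 TPM, against 522, 614 and 485 TPM in liver (log2 difference -1.53, adjusted p = 0.0037), and lay above the marker band in all intestine libraries. The bile salt export pump listed as abcb11 had 13.7, 7.51 and 3.09 TPM in intestine, against 16.7, 124 and 53.6 TPM in liver (log2 difference -2.62, adjusted p = 0.03), a call lost without intestine replicates 2 or 3 or liver replicates 2 or 3 (log2 difference -2.67 to -1.96, adjusted p from 0.067 to 0.11). Its relative abcb11a was higher in intestine, with 8.99, 7.32 and 8.05 TPM, against 0.0469, 0.254 and 0.04397 TPM in liver (log2 difference 3.03, adjusted p = 5.2e-05). One subunit of the basolateral bile acid exporter, slc51a, was lower in intestine (log2 difference -2.01, adjusted p = 0.001), although in mammals the ileum is a main site of this transporter.

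Digestive enzymes of the brush border were the most one-sided of the 16 metabolic lists. Of 20 genes tested, 19 were higher in intestine and none in liver, against 30.4% and 4.58% of all genes tested. Their median was 6.12, or 6.90 with genes at 0 in liver placed at their bound (5.63 after rescaling, with the same counts). All 19 calls were made again in each fit without 1 library, and 11 of the 19 had at most 3 counts in every liver library. Summed over the 24 identifiers listed, the liver libraries held 4.63, 16.6 and 11.1 TPM. Most members therefore passed the filter through the intestine libraries alone. Their counts, also those without 1 library, were largely fixed by it. Aminopeptidase N (anpep (ENSDARG00000103878)) had 853, 1465 and 1468 TPM in intestine, against 0.607, 1.59 and 0.8403 TPM in liver (log2 difference 9.28, SE 0.309, limma adjusted p = 3.8e-06). The meprin subunits, which are membrane metalloproteases, reached 495, 612 and 585 TPM for mep1b (ENSDARG00000037533) and 388, 431 and 265 TPM for mep1a.1 in intestine, against at most 2 counts of either in any liver library. The lactase gene lct (ENSDARG00000060671) had 37.1, 41.3 and 39.7 TPM in intestine and 0 counts in liver. Enteropeptidase (tmprss15), which activates trypsinogen, was low, with 12.4, 21.01 and 4.15 TPM in intestine and 0 counts in liver, and it was at least 182-fold higher in intestine against the same floor. The gene not called was anpep (ENSDARG00000097285), with 13.5, 16.3 and 16.9 TPM in intestine and 2.45, 11.7 and 8.08 TPM in liver (adjusted p = 0.085, and 0.049 with the replicate block).

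Membrane transporters for nutrients followed the same side, with exceptions. Of 48 genes tested, 31 were higher in intestine and 2 in liver, against 30.4% and 4.58% of all genes tested. Their median was 2.61, and 2.30 after rescaling, with 26 and 7 calls. Without liver replicate 1 the calls on the liver side numbered 10, where those of all genes rose from 616 to 1019. The dicarboxylate transporter gene slc13a2 had 1711, 2176 and 3149.7 TPM in the intestine libraries, against 0.125, 0.265 and 0.0701 TPM in the liver libraries (log2 difference 10.95, SE 0.2697, limma adjusted p = 1.7e-06). Peptide uptake was represented by slc15a1 (ENSDARG00000044528), the oligopeptide carrier, with 979, 1109.6 and 1418 TPM in intestine and at most 1 count per liver library. The sodium-glucose cotransporter slc5a1 had 702, 904 and 987 TPM in intestine, against 0.459, 1.99 and 1.297 TPM in liver (log2 difference 8.63, adjusted p = 5.5e-06). The 3 copies of the neutral amino acid carrier slc6a19 stood at mean levels of 291, 314 and 437 TPM in intestine, and none exceeded 1.70 TPM in a liver library. The fructose carrier slc2a5 was higher in intestine, at 47.1, 52.2 and 41.95 TPM, against 3.51, 1.83 and 2.64 TPM in liver (log2 difference 3.74, adjusted p = 6.4e-05). The phosphate carrier slc34a2 (8.96) and the heavy chain slc3a2a (5.895) were called in the same direction.

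Other carriers were not called or were called in liver. The glucose carrier slc2a2, used by enterocytes and hepatocytes alike, had 108, 74.4 and 78.99 TPM in intestine and 42.1, 162 and 176 TPM in liver, and was not called (log2 difference -0.31, adjusted p = 0.66). The metal transporter slc11a2 had 24.9, 22.003 and 32.3 TPM in the intestine libraries, against 24.1, 26.1 and 25.5 TPM in the liver libraries, within 2-fold (log2 difference 0.05, adjusted p = 0.88). The 2 calls on the liver side were slc38a4 and slc43a1 (ENSDARG00000037748), amino acid carriers. For slc38a4 the levels were 122, 121 and 55.4 TPM in intestine, against 166, 1034 and 985 TPM in liver (log2 difference -2.55, adjusted p = 0.029). The groups did not overlap, as in 97.7% of all genes higher in liver and 61.3% of all genes tested. Liver replicate 1 lay far below the other liver libraries, and the slc38a4 call was lost without intestine replicates 1, 2 or 3 or liver replicates 2 or 3 (log2 difference -2.74 to -2.10, adjusted p from 0.059 to 0.1). The call of slc43a1 (ENSDARG00000037748) (-2.16) was lost without intestine replicate 2 (log2 difference -2.22, adjusted p = 0.054).

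Key genes of gluconeogenesis were expressed in both organs. Of 16 genes of gluconeogenesis and glycogen tested, 2 were higher in intestine and 5 in liver, against 30.4% and 4.58% of all genes. Rescaling moved the median from -0.68 to -1.46, with 2 and 6 calls. Without liver replicate 1 the calls on the liver side numbered 8, where those of all genes rose from 616 to 1019. Phosphoenolpyruvate carboxykinase pck1 had 280.1, 2426 and 3722 TPM in intestine, against 107, 1559 and 2214 TPM in liver, and it was not called (log2 difference 0.92, adjusted p = 0.6). The catalytic subunit of glucose-6-phosphatase listed as g6pc1 (ENSDARG00000013721) had 75.3, 1021 and 1471 TPM in intestine and 103, 1299.6 and 2138 TPM in liver (log2 difference -0.44, adjusted p = 0.82). For both genes replicate 1 was the low library in each organ, and only in intestine replicates 2 and 3 did the level lie above the share of every liver marker. This pattern by replicate number was noticed after the values were seen. Liver replicate 1 was the lowest liver library for 71.0% of all genes tested, so the liver part of the pattern is common. How many genes had replicate 1 lowest in both organs was not counted. Other genes that followed it in both organs were the glutamine synthetase glul (ENSDARG00000099776), with 34.8, 234 and 198 TPM in intestine and 8.46, 296 and 291 TPM in liver, and the sterol sensor insig1, with 14.01, 75.3 and 127 TPM in intestine and 3.36, 5.53 and 8.02 TPM in liver. The call of insig1 (log2 difference 3.05) was lost without intestine replicates 2 or 3 (log2 difference 2.41 to 2.79, adjusted p from 0.057 to 0.068). The gene cyp7a1 followed the pattern in reverse.

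**Figure D4:**
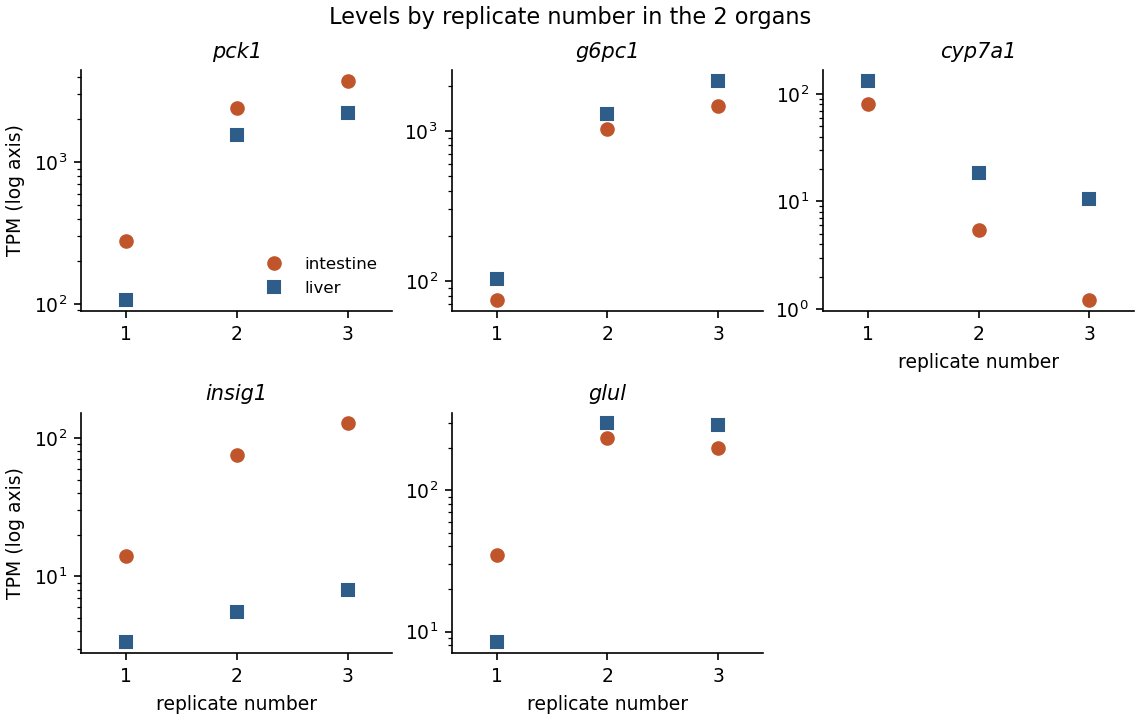
Levels by replicate number (x axis) of 5 genes in intestine (orange circles) and liver (blue squares), in TPM on log axes. For pck1, g6pc1, insig1 and glul replicate 1 is the lowest point in both organs, and for cyp7a1 it is the highest in both.

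Of the 5 genes called in liver, 2 lay above the marker band. Fructose-bisphosphatase fbp1b had 1239, 706 and 832 TPM in intestine, against 1924, 2015 and 3404 TPM in liver (log2 difference -1.39, SE 0.306, limma adjusted p = 0.01). Pyruvate kinase pklr, on this list although its enzyme belongs to glycolysis, had 772, 407 and 463 TPM, against 1927, 1683 and 1719 TPM in liver (log2 difference -1.75, adjusted p = 0.0022). These were the 2 genes above the band in all intestine libraries. Glycogen phosphorylase pygl and glycogen synthase gys2 did not lie above it. The phosphorylase stood at 71.7, 20.4 and 12.7 TPM in intestine, against 155, 219 and 241 TPM in liver (log2 difference -2.87, adjusted p = 0.0082), and the synthase at 32.2, 13.5 and 8.95 TPM, against 83.2, 146 and 141 TPM in liver (log2 difference -2.84, adjusted p = 0.0034). The second phosphatase gene, g6pc1a.1, was lower in intestine (log2 difference -2.66, adjusted p = 0.022), a call lost without intestine replicates 1, 2 or 3 or liver replicates 2 or 3 (log2 difference -2.78 to -2.09, adjusted p from 0.053 to 0.082). The glucokinase regulator gckr, an inhibitor that holds glucokinase in the hepatocyte nucleus of mammals, had 9.73, 11.6 and 11.1 TPM in intestine and 0 counts in all liver libraries, at least 43.9-fold higher in intestine. Glucokinase (gck) did not pass the filter in these libraries, with 2.802, 0.798 and 0.52997 TPM in intestine and 0.0656, 0.0692 and 0 TPM in liver.

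Fructose breakdown had transcripts in both organs. Among 7 genes tested, 4 were higher in intestine and 1 in liver, against 30.4% and 4.58% of all genes tested. Rescaling moved the median from 1.179 to 0.36, with 1 and 2 calls. Without liver replicate 1 the calls on the liver side numbered 2, where those of all genes rose from 616 to 1019. Ketohexokinase khk was not called, with 25.1, 26.7 and 26.6 TPM in intestine and 10.1, 20.2 and 17.3 TPM in liver. Sorbitol dehydrogenase sord was lower in intestine, at 39.5, 21.2 and 19.3 TPM, against 84.8, 84.5 and 67.5 TPM in liver (log2 difference -1.59, adjusted p = 0.0062), and it lay above the marker band in all intestine libraries.

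Amino acid breakdown was the list with the most members higher in liver. Of 46 genes tested, 5 were higher in intestine and 20 in liver, against 30.4% and 4.58% of all genes tested. Their median was -0.98, and -1.81 after rescaling, with 3 and 29 calls. In each fit without 1 library, 14 of the 20 calls were made again. Enzymes of phenylalanine and tyrosine breakdown were on the liver side. Phenylalanine hydroxylase pah had 139, 52.9 and 23.05 TPM in intestine, against 348, 558 and 455 TPM in liver (log2 difference -2.98, adjusted p = 0.0075). The hydroxyphenylpyruvate dioxygenase gene hpda had 1056, 327 and 196 TPM in the intestine libraries, against 2617, 3901 and 4373 TPM in the liver libraries (log2 difference -3.12, SE 0.592, limma adjusted p = 0.0057), and tat (-2.82) and hgd (-2.74) were called as well. Their intestine levels followed the liver markers, and hpda stood at 29.1, 8.997 and 5.39% of the liver mean in intestine replicates 1, 2 and 3. Betaine-homocysteine methyltransferase bhmt, the transaminase agxt (ENSDARG00000018478) and histidine ammonia-lyase hal showed the same order of intestine libraries, with differences of -2.89, -3.12 and -2.92.

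Of the 20, 8 lay above the marker band. Glutathione S-transferase zeta gstz1, the maleylacetoacetate isomerase of tyrosine breakdown, had 122, 118 and 109 TPM in intestine, against 294, 332 and 329 TPM in liver (log2 difference -1.44, SE 0.172, limma adjusted p = 0.0008). Methionine adenosyltransferase mat1a had 257, 153 and 96.3 TPM in intestine, against 379, 789 and 597 TPM in liver (log2 difference -1.85, adjusted p = 0.012). The others were dmgdh, ftcd, glud1a, kmo, upb1 and uroc1, and with the replicate block the calls of glud1a and kmo were lost (adjusted p = 0.053 and 0.06). The call of dmgdh was lost without intestine replicates 2 or 3 (log2 difference -1.56 to -1.54, adjusted p from 0.053 to 0.055), that of glud1a was lost without intestine replicates 2 or 3 or liver replicates 2 or 3 (log2 difference -1.23 to -0.78, adjusted p from 0.1 to 0.11), that of kmo was lost without intestine replicates 2 or 3 or liver replicates 2 or 3 (log2 difference -1.31 to -1.16, adjusted p from 0.085 to 0.11) and that of uroc1 was lost without intestine replicates 2 or 3 or liver replicates 2 or 3 (log2 difference -2.27 to -1.89, adjusted p from 0.061 to 0.072). Genes of the opposite side were fewer. Cystathionine gamma-lyase cth (ENSDARG00000032206) had 37.99, 45.1 and 33.4 TPM in intestine, against 0.2301, 0.922 and 0.617 TPM in liver (log2 difference 4.66, adjusted p = 2.9e-05), and the glutaminase gls (ENSDARG00000040705) had 109, 67.1 and 135 TPM, against 3.14, 31.7 and 16.2 TPM in liver (log2 difference 2.93, adjusted p = 0.017), a call lost without intestine replicates 1 or 3 (log2 difference 2.71 to 2.86, adjusted p from 0.054 to 0.067). Glutamate dehydrogenase glud1b was held in common, with 740.1, 641 and 665 TPM in intestine and 462, 632 and 644 TPM in liver (log2 difference 0.25, adjusted p = 0.33).

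Retinoid genes were called on both sides. Of 19 genes tested, 11 were higher in intestine and 5 in liver, against 30.4% and 4.58% of all genes tested. Their median was 1.50, and 0.83 after rescaling, with 6 and 8 calls. The carotene oxygenase bco1 had 66.8, 80.2 and 61.7 TPM in the intestine libraries, against 0, 0.0508 and 0.161 TPM in the liver libraries (log2 difference 6.04, SE 0.213, limma adjusted p = 4.9e-06). The related oxygenase bco2 (ENSDARG00000055722) had 9.55, 15.5 and 16.2 TPM in the intestine libraries, against 1.07, 6.77 and 4.12 TPM in the liver libraries (log2 difference 1.73, adjusted p = 0.029), a call lost without intestine replicates 2 or 3 or liver replicate 3 (log2 difference 1.60 to 1.85, adjusted p from 0.057 to 0.1) and also after rescaling (1.07, adjusted p = 0.063). The retinoic acid hydroxylase cyp26a1 had 27.2, 13.8 and 86.1 TPM in intestine and 0 counts in all liver libraries, at least 254-fold higher in intestine. The cellular carrier rbp2 (ENSDARG00000070038) had 8460.3, 7170.3 and 8807 TPM in intestine, against 2668, 1276 and 2403 TPM in liver (log2 difference 2.01, adjusted p = 0.0019), and the call was lost after rescaling (1.17, adjusted p = 0.13). Its copy rbp2 (ENSDARG00000093774) took the opposite side, with 117, 35.5 and 21.2 TPM in intestine, against 527, 317 and 408 TPM in liver (log2 difference -3.16, adjusted p = 0.0055). The plasma carrier rbp4 was lower in intestine, at 628, 337 and 211 TPM, against 1583, 2769.8 and 3855 TPM in liver (log2 difference -2.85, SE 0.473, limma adjusted p = 0.0033), and transthyretin ttr, its partner in blood, had 12.9, 6.36 and 0.896 TPM, against 47.5, 82.2 and 33.8 TPM in liver (log2 difference -3.17, adjusted p = 0.012). Intestine replicate 1 was again the highest intestine library for rbp4, ttr and rbp2 (ENSDARG00000093774).

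Of 16 cholesterol synthesis genes tested, 4 were higher in intestine and none in liver, against 30.4% and 4.58% of all genes tested (median 0.42, and -0.24 after rescaling, with 3 and 2 calls). Without liver replicate 1 there was 1 call on the liver side, where those of all genes rose from 616 to 1019. Sterol reductase dhcr7 had 12.2, 14.2 and 14.1 TPM in the intestine libraries, against 0.872, 2.65 and 1.43 TPM in the liver libraries (log2 difference 2.504, adjusted p = 0.00071). Of 15 fatty acid synthesis genes, 7 were higher in intestine and none in liver (median 1.26, and 0.76 after rescaling, with 6 and 3 calls). Calls on the liver side appeared without intestine replicate 1 (3), liver replicate 1 (2) and liver replicate 2 (1). Those of all genes numbered 682, 1019 and 497 in these fits, against 616 with all libraries. The desaturase scd had 23.7, 13.9 and 62.4 TPM in intestine, against 0, 0.0611 and 0.129 TPM in liver, at most 2 counts (log2 difference 4.75, adjusted p = 0.00048), and the elongase elovl2 had 61.99, 46.7 and 67.4 TPM, against 9.498, 13.8 and 12.4 TPM in liver (log2 difference 2.21, adjusted p = 0.00058).

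The enzymes that build the fatty acid chain did not share that side. Fatty acid synthase fasn had 5.49, 1.9997 and 1.499 TPM in intestine and 4.15, 14.6 and 15.5 TPM in liver (adjusted p = 0.056), and acetyl-CoA carboxylase acaca had 29.7, 7.07 and 6.41 TPM in intestine and 23.7, 50.97 and 68.8 TPM in liver (adjusted p = 0.05). Neither was called, and after rescaling both were called lower in intestine (-2.23 and -2.65, adjusted p = 0.0061 and 0.0097). The lipogenic regulator thrsp varied within both organs, with 122, 11.3 and 47.6 TPM in intestine and 371, 86.6 and 744 TPM in liver, and replicate 2 was the lowest in both. Its difference of -2.79 was not called (adjusted p = 0.064) until the replicate block was added (adjusted p = 0.0071).

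Fatty acid oxidation and ketone genes were the list with the most members within 2-fold. Of 29 tested, 9 lay within 2-fold, 3 were higher in intestine and 2 in liver. Among all genes tested these shares were 5.31%, 30.4% and 4.58%. Rescaling moved the list median from 0.17 to -0.62, with 1 and 9 calls. On the liver side 4 genes were called without liver replicate 1, and 1 without any other library but intestine replicate 1. Over all genes that side held 1019 without liver replicate 1 and 409 to 497 in the latter fits, against 616. Medium-chain acyl-CoA dehydrogenase acadm had 222, 197 and 197 TPM in intestine and 241, 285 and 305 TPM in liver, and the electron carrier subunit etfb had 164, 134 and 162 TPM in intestine and 197, 200.4 and 199 TPM in liver. The peroxisomal bifunctional enzyme ehhadh had 97.96, 71.2 and 85.7 TPM in intestine and 103, 103 and 89.5 TPM in liver. The carnitine-acylcarnitine carrier slc25a20 had 42.4, 43.2 and 50.1 TPM in intestine and 46.2, 50.3 and 54.2 TPM in liver. Ketone body dehydrogenase bdh1 was higher in intestine, at 27.4, 28.3 and 29.7 TPM, against 3.01, 11.1 and 9.47 TPM in liver (log2 difference 1.88, adjusted p = 0.011). The thiolase acaa2 was lower, at 36.9, 26.97 and 28.6 TPM, against 68.03, 72.4 and 76.5 TPM in liver (log2 difference -1.22, SE 0.209, limma adjusted p = 0.0038), and lay above the marker band.

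The 10 most abundant metabolic genes within 2-fold spanned several pathways. They were apoc2, apoeb, glud1b, gstr, adh5, acadm, dhrs9, etfb, ehhadh and cyp2y3, whose differences ran from -0.47 for gstr to 0.25 for glud1b. Alcohol dehydrogenase adh5, which clears formaldehyde, had 289, 266 and 341 TPM in intestine and 434, 346 and 371 TPM in liver (log2 difference -0.36, adjusted p = 0.16), and the retinol-active dehydrogenase dhrs9 had 147, 147 and 138 TPM in intestine and 206, 193 and 191 TPM in liver (log2 difference -0.45, adjusted p = 0.068). After rescaling 8 of the 10 had differences beyond 2-fold in the direction of liver, from -1.03 for cyp2y3 to -1.31 for gstr, and only glud1b and apoeb stayed inside it.

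**Figure D5:**
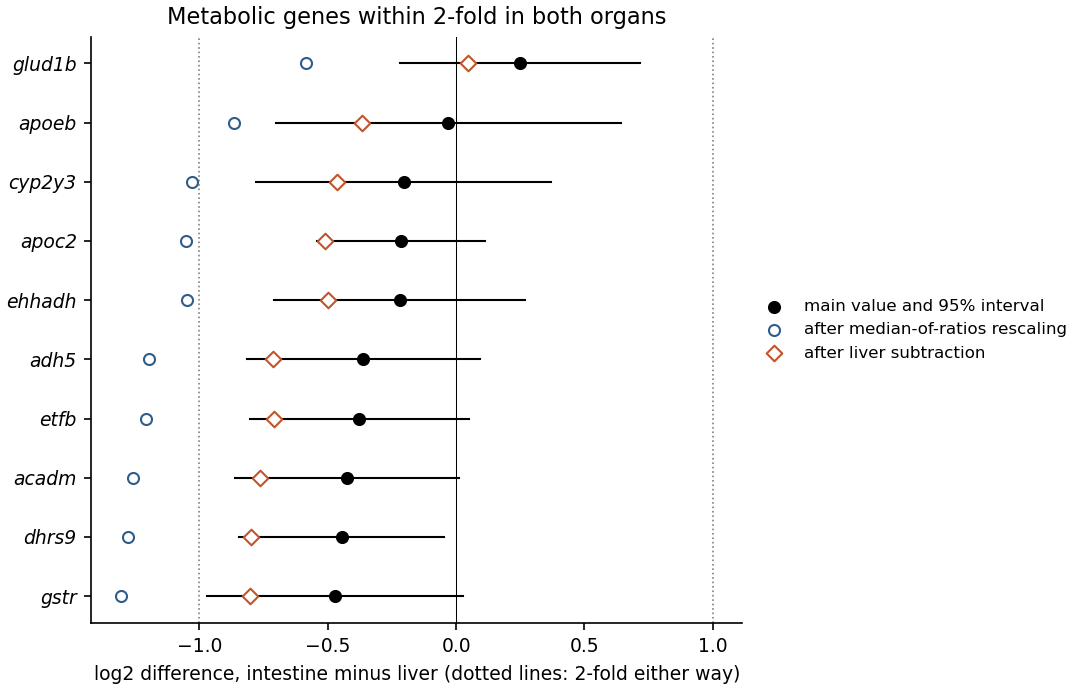
Difference between the organs (x axis, intestine minus liver, log2) of the 10 most abundant metabolic genes within 2-fold. Black points with bars are values with 95% intervals, blue rings values after rescaling and orange diamonds values after liver subtraction; black points lie between -0.47 and 0.25, and 8 blue rings lie left of the line at -1.

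Of 41 phase 1 genes tested, whose products oxidise or hydrolyse foreign compounds, 17 were higher in intestine and 5 in liver. Among all genes tested these shares were 30.4% and 4.58%. Rescaling moved the list median from 0.83 to 0.13, with 9 and 10 calls. The cytochrome P450 gene cyp3a65 had 1459, 1033 and 1930.3 TPM in the intestine libraries, against 198, 194 and 242 TPM in the liver libraries (log2 difference 2.76, SE 0.262, limma adjusted p = 0.00028). On the liver side were the carboxylesterases ces3 and ces2a, with 362, 96.7 and 60.2 TPM in intestine, against 1042, 792 and 1115 TPM in liver for ces3 (log2 difference -2.91, adjusted p = 0.0091), both close to the marker shares. Alcohol dehydrogenase adh8a was lower in intestine, at 2195, 937 and 726 TPM, against 4937, 4525 and 5789 TPM in liver (log2 difference -2.14, adjusted p = 0.0053), and lay above the marker band, while its paralogue adh8b had 667, 549.7 and 678 TPM in intestine and 338, 355 and 479 TPM in liver and did not reach 2-fold (log2 difference 0.703, adjusted p = 0.031). Vitamin D 24-hydroxylase cyp24a1 ranged widely within both organs, with 1.94, 9.595 and 27.6 TPM in intestine and 1.34, 49.4 and 161 TPM in liver, with replicate 1 lowest in each, and was not called.

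Of 33 phase 2 genes, which attach sulfate, glucuronic acid or glutathione, 10 were higher in intestine and 2 in liver, close to the 30.4% and 4.58% of all genes tested (median 0.59, and -0.10 after rescaling, with 6 and 10 calls). Without intestine replicate 2 the liver side held 1 call, where that of all genes fell from 616 to 409. Sulfotransferase sult1st2 had 178, 165 and 235 TPM in the intestine libraries, against 5.16, 7.41 and 6.43 TPM in the liver libraries (log2 difference 4.72, SE 0.237, limma adjusted p = 2e-05). The glutathione transferase gsto1 had 15.9, 30.6 and 33.6 TPM in intestine and 0 counts in liver, at least 124-fold higher in intestine. Its relatives gstr and gsta.2 lay within 2-fold, and gstt1a was lower in intestine, with 403, 143 and 107 TPM, against 1051, 1022 and 1303 TPM in liver (log2 difference -2.599, adjusted p = 0.0049).

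Of 18 iron and copper genes tested, 3 were higher in intestine and 4 in liver, against 30.4% and 4.58% of all genes tested. Rescaling moved the median from -0.02 to -0.80, with 1 and 7 calls. Without liver replicate 1 the calls numbered 5 in intestine and 6 in liver. Those of all genes went from 4090 to 3647 in intestine and from 616 to 1019 in liver. The iron exporter ferroportin (slc40a1) had 13.4, 11.3 and 10.9 TPM in intestine, against 3.38, 2.27 and 6.57 TPM in liver (log2 difference 1.43, adjusted p = 0.014), a call that rescaling removed (0.699, adjusted p = 0.19). The copper pump atp7a had 3.56, 5.53 and 5.06 TPM in intestine, against 0.458, 1.41 and 1.0996 TPM in liver (log2 difference 1.54, adjusted p = 0.0041). Ceruloplasmin cp, the copper oxidase of plasma, was lower in intestine, at 520.0, 185 and 149.7 TPM, against 3609.8, 1951 and 2275 TPM in liver (log2 difference -3.37, SE 0.492, limma adjusted p = 0.0019), and so was hepcidin (hamp), the hormone that lowers iron export, at 48.3, 22.1 and 12.04 TPM, against 248, 185 and 273 TPM in liver (log2 difference -3.25, adjusted p = 0.002). Heme oxygenase hmox1 had 9.49, 5.37 and 4.401 TPM in intestine, against 37.6, 38.1 and 61.5 TPM in liver (log2 difference -2.68, adjusted p = 0.001). The 4th call on the liver side, transferrin (tfa), is itself a liver marker and could not lie above the marker band. Each of the others lay inside or below the band in at least 1 intestine library.

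Among transcription regulators, 16 of 42 tested were higher in intestine and 4 in liver, against 30.4% and 4.58% of all genes tested. Rescaling moved the median from 0.99 to 0.21, with 8 and 6 calls, near the 17.9% and 11.4% of all genes in that fit. The liver side held 7 calls without liver replicate 1 and 2 without intestine replicate 2. Over all genes it held 1019 and 409 in these fits, against 616 with all libraries. The caudal factor cdx1b, which specifies intestine, had 23.4, 21.7 and 28.3 TPM in intestine, against 0.178, 0.392 and 0.589 TPM in liver (log2 difference 4.202, SE 0.229, limma adjusted p = 2.8e-05). The zinc finger factor gata5 had 48.6, 19.4 and 24.4 TPM in intestine, against 1.07, 1.06 and 0.999 TPM in liver (log2 difference 3.85, adjusted p = 0.00024). The nuclear receptor hnf4g had 56.4, 84.2 and 102 TPM in intestine, against 7.91, 15.1 and 9.27 TPM in liver (log2 difference 2.81, adjusted p = 0.00073). Its relatives did not separate the organs. For hnf4a the levels were 97.99, 89.4 and 86.6 TPM in intestine and 21.2, 119.7 and 93.04 TPM in liver, with liver replicate 1 the only low library (log2 difference 0.55, adjusted p = 0.48), and hnf4b lay within 2-fold (log2 difference -0.19, adjusted p = 0.61). On the liver side foxa2 had 8.22, 3.86 and 1.52 TPM in intestine, against 28.1, 33.1 and 16.6 TPM in liver (log2 difference -2.42, adjusted p = 0.0083), and the receptor nr1h5 had 6.203, 5.16 and 4.204 TPM, against 19.9, 36.2 and 35.6 TPM in liver (log2 difference -2.31, adjusted p = 0.0011). The gene prox1 lay above the marker band in all intestine libraries, and its call (-1.89) was lost without intestine replicates 2 or 3 or liver replicates 2 or 3 (log2 difference -1.87 to -1.52, adjusted p from 0.084 to 0.11) and with the replicate block (adjusted p = 0.054), and that of hhex (-1.46) was lost without intestine replicates 2 or 3 (log2 difference -1.47 to -1.34, adjusted p from 0.055 to 0.068).

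The most abundant called genes came from outside metabolism as well. In intestine the chitinase gene chia.3 had 17523, 16405 and 27196 TPM, against 0.621, 0 and 0.0995 TPM in liver (log2 difference 13.999, adjusted p = 1.2e-06). The pancreatic proteases prss1, prss59.1, prss59.2 and cela1 (ENSDARG00000017314) were among the 10 most abundant, at 11001, 12367 and 7258 TPM for prss1 in intestine, against 254, 430.1 and 123 TPM in liver (log2 difference 5.38, adjusted p = 0.00017), and all 4 are products of the exocrine pancreas. The others were apoa1a, apoea and 3 genes with clone names, zgc:158463, si:dkey-238c7.13 and si:dkey-153m14.1. The call of si:dkey-153m14.1 (1.59) was lost after rescaling (0.75, adjusted p = 0.15). In liver the 10 most abundant were fabp10a, apoa2, apoa1b, tfa, wu:fj16a03, apoc1, serpina1l, crp3, apcs and serpina1. The acute phase genes crp3 and apcs, both pentraxins, had 1362, 662 and 262 TPM in intestine, against 7059, 7537 and 5264 TPM in liver, and 2168, 511 and 479.6 TPM, against 6909, 3401 and 7990.3 TPM in liver (-3.401 and -2.82, adjusted p = 0.0031 and 0.011). All 10 were highest in intestine replicate 1 among the intestine libraries, as were 90.9% of all genes higher in liver. Of the 10, fabp10a, tfa, serpina1l and serpina1 are themselves liver markers.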

How the data were processed

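RNA was extracted with TRIzol, and poly(A) RNA was sequenced in strand-specific libraries. The authors deposited, for every gene of each library, estimated counts, effective lengths and TPM values, normalized by length and to a common sum. The submitters' processing notes name cutadapt 1.18, HISAT2 2.1.0, SAMtools 1.9 and kallisto 0.43.0 with build GRCz11. The step each served is not given in the sources used here. Symbols came from the reference gene table for 29201 of 32524 identifiers, and 67 of 681 list entries matched none. A list entry without a match was tried again without its final copy number or letter. All identifiers with the matched symbol were then taken, so a list can hold copies other than the one named.

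Libraries were grouped by tissue label. The 3 intestine and 3 liver libraries were compared with limma 3.58.1 (R 4.3.3) on log2(TPM + 1), for genes at 1 TPM or more in at least 3 of the 6, with Benjamini-Hochberg adjustment over all genes tested. All adjusted p-values are from this fit unless another is named. Alternatives were a pseudocount of 0.1, no filter, median-of-ratios rescaling, edgeR 4.0.16 and DESeq2 1.42.0 on estimated counts rounded to whole numbers, all 27 libraries, the replicate number as a block, liver subtraction and leaving out each library. Floors of 3 counts cover counting error only. On simulated data of 13130 genes, limma recovered 34 of 100 genes changed 2-fold and 97 of 99 changed 4-fold, and called 15 of the 12930 unchanged genes at an adjusted p under 0.05. Those counts were drawn at a single fixed dispersion from means shared by both organs. They held no liver RNA in graded amounts and no library that stood apart. The rates check the code and need not hold for the real libraries.

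Same-numbered intestine and liver libraries deviated together from their organ means (r of 0.227, 0.206 and 0.211 across genes for numbers 1, 2 and 3, against 0.0443 at most for other pairs). Because deviations from an organ mean sum to 0, positive values for same numbers by themselves lower those of other pairs. A pairing by number was therefore used only as the block of an alternative fit, and the main fit is unpaired. This pairing comes from the data, since the labels give only the numbers.

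Genes named by rule were the 10 most abundant called in each direction, the extremes, the 3 most abundant and the unstable members of each list, the 10 most abundant metabolic genes within 2-fold, and the fatty acid-binding proteins and defining markers. Other list members were named after their values were seen. Some members are not reported here. The members and lists were chosen with earlier results of these data known.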

Additional observations from a re-analysis of the deposited data

How the results depend on the processing

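With median-of-ratios rescaling 2324 genes were higher in intestine and 1479 in liver, 423 lay within 2-fold, and the liver marker shares of intestine replicates 1, 2 and 3 were 16.5%, 6.34% and 3.26%. On rounded counts edgeR called 1818 and DESeq2 2120 genes higher in liver, and DESeq2 placed 326 within 2-fold. edgeR gave no interval, so it has no value for genes within 2-fold. Liver subtraction, which can only lower intestine values, called 976 genes higher in liver. Genes higher in intestine made up 86.9% of calls, against 61.1% with rescaling, 60.8% with edgeR and 58.2% with DESeq2. Leaving out 1 library gave 3336 to 4530 genes higher in intestine, 409 to 1019 higher in liver and 526 to 1009 within 2-fold. With the replicate block, 4302 genes were higher in intestine, 630 in liver and 683 within 2-fold, and beyond the calls given beside the results the block changed no other call of a gene described. No call turned round in any setting. Of 4706 calls, 3432 were made in every fit without 1 library. The cause of these shifts was not tested. Depth of 9434882 to 14151312 estimated counts limits genes near 1 TPM, where few counts underlie a value.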
